A study of Caenorhabditis elegans with 17 samples.

Results

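The nuclear subunits of the last 2 proton-pumping complexes of the electron transport chain (ETC) that were followed here are *isp-1*, *cyc-1*, *ucr-1*, *ucr-2.1*, *ucr-2.2* and *ucr-2.3* of complex III and *cox-4*, *cox-5A*, *cox-5B* and *cox-6A* of complex IV. They were taken by name from the deposited table of oocyte mRNA, which listed all 10 of them among 21459 genes. Complex III (cytochrome bc1) takes electrons from ubiquinone and passes them to cytochrome c, and complex IV (cytochrome oxidase) takes them from cytochrome c and hands them to oxygen. Both complexes are built from subunits encoded in the nucleus and in mitochondrial DNA, and oocytes supply the embryo with its mitochondria.

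Oocyte RNA was collected from wild-type *C. elegans* (Bristol strain N2) mothers that were moved at the last larval stage either to medium with 300 mM NaCl, a mild osmotic stress, or to control NGM, the standard agar medium, and kept there until the first day of adulthood. The labels list 17 libraries, 8 of mothers on 300 mM NaCl and 9 of mothers on control NGM. In each group they carry 3 replicate numbers with letters, and the study describes 3 replicates per medium, each of oocytes from 1 animal, so the libraries may not be independent animals. The most mature oocytes were cut by hand from a gonad arm, and some of the sheath cells that surround them came along. The study asked whether the maternal environment changes oocyte mRNA, and whether such changes match those of embryo proteins.

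The table holds no value of any single library. Its only measurement outside the comparison made by the authors is a mean normalized count, taken over the libraries of both media together, so each gene has 1 level here and neither a spread nor a test can be given. The authors' own comparison of mothers on 300 mM NaCl with mothers on control NGM is in the deposited table. It was not used, and that difference was not analysed here. Levels were compared between genes mainly after division by exon length, as mean normalized counts per kb of exon. Where coding length or no length was used instead, this is said. Over the 17713 protein-coding genes of the table, the median level was 17.7 per kb of exon and the 90th percentile was 471 per kb. These levels describe the pooled oocytes with their sheath, in which fewer cells of a type and less RNA per cell cannot be told apart.

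Oocyte transcripts stood high in this RNA. The 10 oocyte markers had levels from 839 per kb of exon (*chs-1*, chitin synthase of the eggshell) to 1744 per kb (*pos-1*, a maternal RNA-binding protein). The 10 markers of gonadal sheath ranged from 3.0 per kb (*tnt-2*, a muscle troponin T) to 1117 per kb (*inx-8*, a gap junction innexin), with a median of 98.6 per kb. The 8 intestine markers lay between 4.48 per kb (*ifb-2*, an intermediate filament) and 74.4 per kb (*vit-2*, a yolk protein), and the 10 sperm markers between 1.75 per kb (*spe-9*, needed for fertilization) and 113 per kb (*msp-3*, a major sperm protein). No marker was at 0, which was fixed in advance, since the authors dropped genes with under 10 reads in total. How much of the respiratory subunit mRNA came from sheath was not tested.

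All 10 subunit genes were above the median protein-coding gene, and 8 of the 10 were above the 90th percentile. By mean normalized count, without division by length, all 10 were again above the median gene, but only 3 (*ucr-2.1*, *ucr-1* and *ucr-2.3*) were above the 90th percentile. Their median level was 725 per kb of exon. The lowest was *ucr-2.2* at 225 per kb and the highest *ucr-2.1* at 930 per kb, a ratio of 4.13. Both extremes on this scale belong to complex III and encode versions of the same protein. Without *ucr-2.2* and *cyc-1*, the other 8 genes lay within a ratio of 1.68 per kb of exon. Per kb of coding sequence, the highest was *cox-4* and the lowest again *ucr-2.2*. Together, the mean normalized counts of the 10 genes made up 0.162% of the summed counts of all genes.

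**Figure D1:**
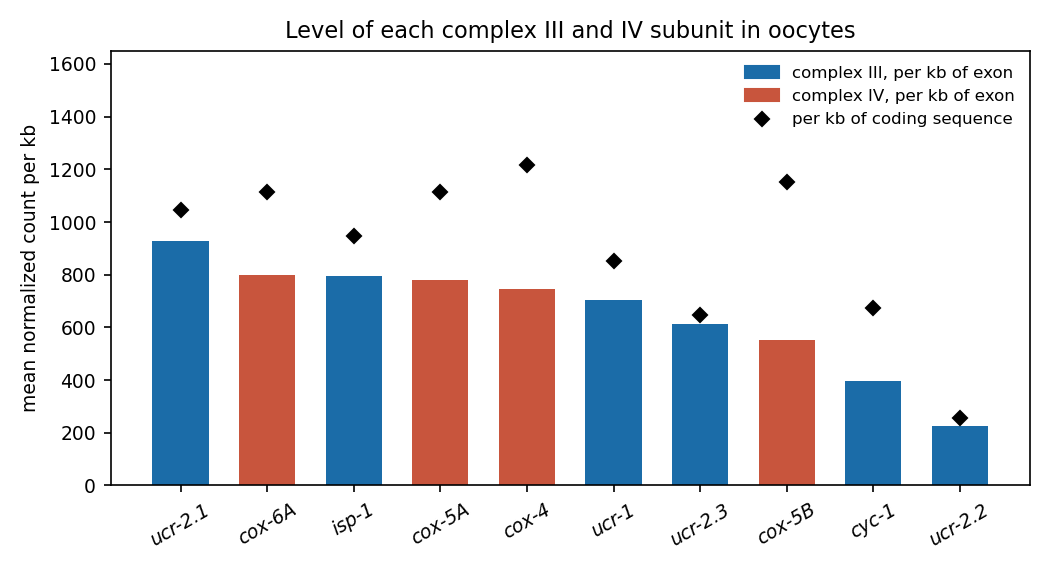
Level of the 10 subunit genes, as mean normalized count per kb of exon (bars; blue for complex III, red for complex IV) and per kb of coding sequence (diamonds). Bars run from 930 per kb for *ucr-2.1* to 225 per kb for *ucr-2.2*, and the 4 *cox* genes have the highest diamonds. Each gene has 1 value over all libraries, so there are no error bars.

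*isp-1* encodes the Rieske iron-sulfur protein, the subunit of complex III that carries electrons from ubiquinol towards cytochrome c1. It lies on the reverse strand of chromosome IV, from 8134016 to 8136055 in WBcel235, with 8 exons in its only annotated transcript. No other annotated gene overlaps it. Its mean normalized count was 785, or 796 per kb of exon, and 97.2% of protein-coding genes had a lower level.

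*cyc-1* encodes cytochrome c1, which receives those electrons and delivers them to cytochrome c. It lies on the reverse strand of chromosome I (8022674 to 8024422) and had a mean normalized count of 575. Its level of 395 per kb of exon was lower than that of *isp-1*, with *isp-1* at 2.02 times *cyc-1*. The 2 genes differ in noncoding exon, with 158 of 986 exon bases noncoding in *isp-1* and 600 of 1455 in *cyc-1*. Per kb of coding sequence, *isp-1* was at 948 and *cyc-1* at 672, so the gap was smaller on that scale. Of the exon bases of *cyc-1*, 61 are shared with the oppositely oriented *C54G4.7*, which had a level of 453 per kb of exon. Whether the counting used strand is not given in the sources used here, so reads from those bases cannot be assigned to either gene.

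*ucr-1* encodes the core 1 protein, a relative of mitochondrial processing peptidases that faces the matrix. It lies on the forward strand of chromosome III (5592135 to 5594401), overlaps no other gene, and had a mean normalized count of 1209 and a level of 705 per kb of exon.

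The partner of core 1, the core 2 protein, is encoded by 3 genes in *C. elegans*, and their levels differed. *ucr-2.1*, on the forward strand of the X chromosome (12018429 to 12021206), had a mean normalized count of 1331 and a level of 930 per kb of exon. *ucr-2.3*, on the forward strand of chromosome III (879860 to 881458), had a mean normalized count of 830 and a level of 614 per kb. *ucr-2.2*, on the forward strand of the X chromosome (15173904 to 15178145), had a mean normalized count of 323 and a level of 225 per kb. Of the summed level of the 3 genes, 52.6% came from *ucr-2.1*, 34.7% from *ucr-2.3* and 12.7% from *ucr-2.2*. Their sum was 2.51 times the level of *ucr-1*, and of the 3 only *ucr-2.1* was above *ucr-1* on its own. The coding lengths of the 3 genes were 1272, 1281 and 1266 bases for *ucr-2.1*, *ucr-2.3* and *ucr-2.2*, so this order did not depend on whether exon or coding length was used. Reads from regions where these paralogs are alike could be split between them or dropped, which was not tested. *ucr-2.3* shares 16 exon bases with *zer-1* and *ucr-2.2* shares 13 with *pkhm-2*, both on the opposite strand. A short collagen gene, *col-41*, also lies within the span of *ucr-2.2* on the opposite strand and shares no exon base with it.

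Both X-linked core 2 genes ranked high for their chromosome. The X chromosome is known to be largely silenced in the *C. elegans* germline, with partial expression in oocytes. Its 2366 protein-coding genes in the table had a median level of 11.6 per kb of exon, and their 90th percentile was 210 per kb. For the 15335 autosomal genes, the median was 19.1 per kb and the 90th percentile 495 per kb. *ucr-2.1* ranked 18 among the X-linked genes and *ucr-2.2* ranked 201.

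**Figure D2:**
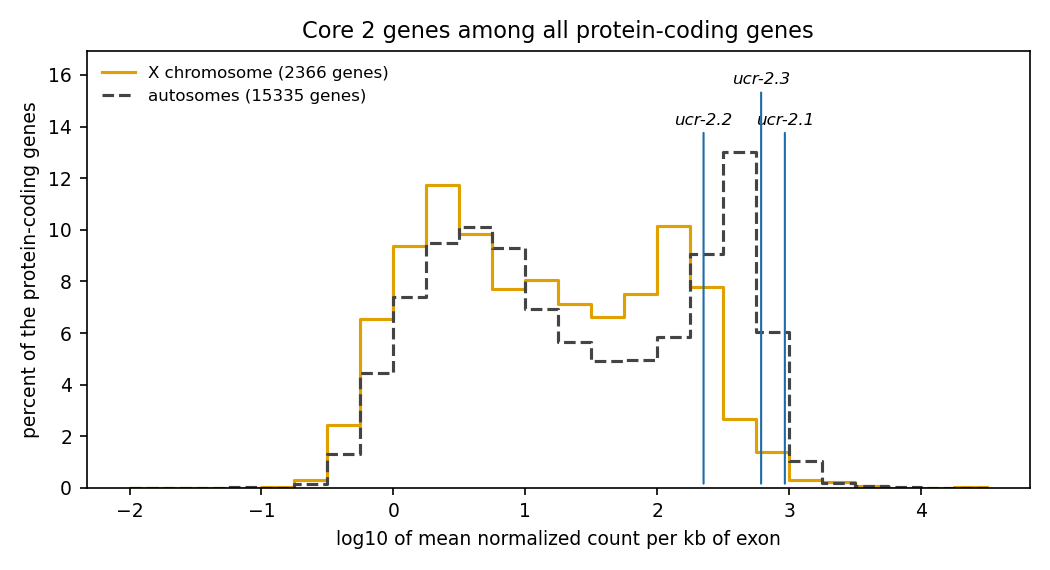
Distribution of the level of protein-coding genes (log10 of the mean normalized count per kb of exon, in bins of 0.25) on the X chromosome (solid line, 2366 genes) and the autosomes (dashed line, 15335 genes), with vertical lines at the 3 core 2 genes. X-linked *ucr-2.1* (930 per kb) lies to the right of nearly all X-linked genes and of autosomal *ucr-2.3* (614 per kb), and X-linked *ucr-2.2* (225 per kb) to the left of both.

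The 4 complex IV genes followed here were closer to each other than the 6 of complex III, among which *ucr-2.2* and *cyc-1* were lowest. *cox-6A*, whose protein is a small membrane subunit of cytochrome oxidase, lies on the forward strand of chromosome III (5081724 to 5082995) and had a mean normalized count of 427 and a level of 797 per kb of exon. *cox-5A*, encoding a matrix-side subunit, lies on the forward strand of the same chromosome (12905491 to 12906619) and had a mean normalized count of 580 and a level of 780 per kb. *cox-4*, encoding the counterpart of the largest nuclear subunit of the mammalian enzyme, lies on the reverse strand of chromosome I (13658171 to 13659128) and had a mean normalized count of 638 and a level of 746 per kb. *cox-5B*, encoding a zinc-binding subunit on the matrix side, lies on the forward strand of chromosome I (9788725 to 9790050) and had a mean normalized count of 456 and a level of 553 per kb. The highest of the 4 was 1.44 times the lowest. The spans of 2 genes that do not code for protein, *F26E4.14* and *F26E4.16*, lie within that of *cox-5B* and share no exon base with it, and the other 3 *cox* genes overlap no annotated gene.

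The median level was 763 per kb of exon for the complex IV genes and 660 per kb for the complex III genes, a ratio of 1.16. The *cox* genes are short, with 28.4% (*cox-6A*) to 52.1% (*cox-5B*) of their exon bases noncoding, whereas the values for complex III ran from 5.18% (*ucr-2.3*) to 41.2% (*cyc-1*). Per kb of coding sequence, the *cox* genes were the 4 highest of the 10, from 1112 (*cox-5A*) to 1216 (*cox-4*), and *ucr-2.1* came next at 1047. On that scale the medians were 1133 for complex IV and 762 for complex III. By mean normalized count, without division by length, the complex IV median was instead the lower, at 0.642 times that of complex III. Several neighbours in the order of the 10 genes per kb of exon were close. *cox-6A* was 1.00 times *isp-1*, *isp-1* was 1.02 times *cox-5A*, *cox-5A* was 1.05 times *cox-4*, and *cox-4* was 1.06 times *ucr-1*. Because no spread between libraries is known, these steps cannot be read as differences. *ucr-2.2* was lowest per kb of exon, per kb of coding sequence and in mean normalized count.

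The 8 other nuclear subunits listed for both complexes lay between 172 and 1028 per kb of exon. In complex III, the levels of the 5 small subunits were 752 per kb of exon for *T27E9.2*, the hinge protein counterpart, 714 for *F45H10.2*, 691 for *T02H6.11*, 550 for *ucr-11* and 172 for *R07E4.3*. *R07E4.3*, the lowest, is the X-linked one, and its mean normalized count was 47.1. In complex IV, *cox-6B* was at 1028 per kb, *cox-7C* at 694 and *cox-6C* at 449. Above the 90th percentile were 8 of the 10 genes followed here and 6 of these 8. The medians were 660 per kb for the complex III genes followed here and 691 per kb for the other complex III subunits, and 763 per kb for the complex IV genes followed here and 694 per kb for the other complex IV subunits.

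Cytochrome *b* of complex III and the core subunits of complex IV are encoded in mitochondrial DNA, and their mRNAs had higher levels. Cytochrome *b* (CYTB) of complex III had a level of 2120 per kb of exon. The complex IV subunits had levels of 3679 per kb for COX2, 2268 per kb for COX1 and 1842 per kb for COX3. The median of these 4 genes was 3.03 times that of the 10 nuclear genes, and each was above the highest of the 10. The mitochondrial genes lie end to end on 1 strand, and each of CYTB, COX1 and COX2 shares from 1 to 7 bases with a neighbouring tRNA gene.

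Cytochrome c, the soluble carrier that links complex III to complex IV, is encoded by a pair of genes with unequal levels. *cyc-2.1* was at 984 per kb of exon, above each of the 10 subunit genes, and *cyc-2.2* at 90.6 per kb, below each of them. *cyc-2.1* was 10.9 times *cyc-2.2*.

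Assembly factors, which help to build the complexes without being subunits, had a lower median than the subunits, though the ranges overlapped. The 11 factors listed had a median of 209 per kb of exon, against 725 per kb for the 10 subunits, and 0 of the 11 were above the 90th percentile of protein-coding genes. Of the 10 subunit genes, 9 were above the highest factor, while 5 of the 11 factors were above *ucr-2.2*. The highest was *cox-15* (haem A synthesis) at 362 per kb, and the lowest was *cox-16* at 5.09 per kb. *cox-16* shares 61.6% of its exon bases with *C24G6.8* on the same strand and *cox-14* shares 75.7% with *Y70G10A.4*, also on the same strand, so the values of both are uncertain. Without both, the median of the factors was 239 per kb. Leaving *cox-16* aside, the lowest was *cox-10* (haem O synthesis) at 9.90 per kb, with a mean normalized count of 15.6. *bcs-1*, whose yeast and human counterparts insert the Rieske protein into complex III, was at 347 per kb, against 796 per kb for *isp-1*.

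**Figure D3:**
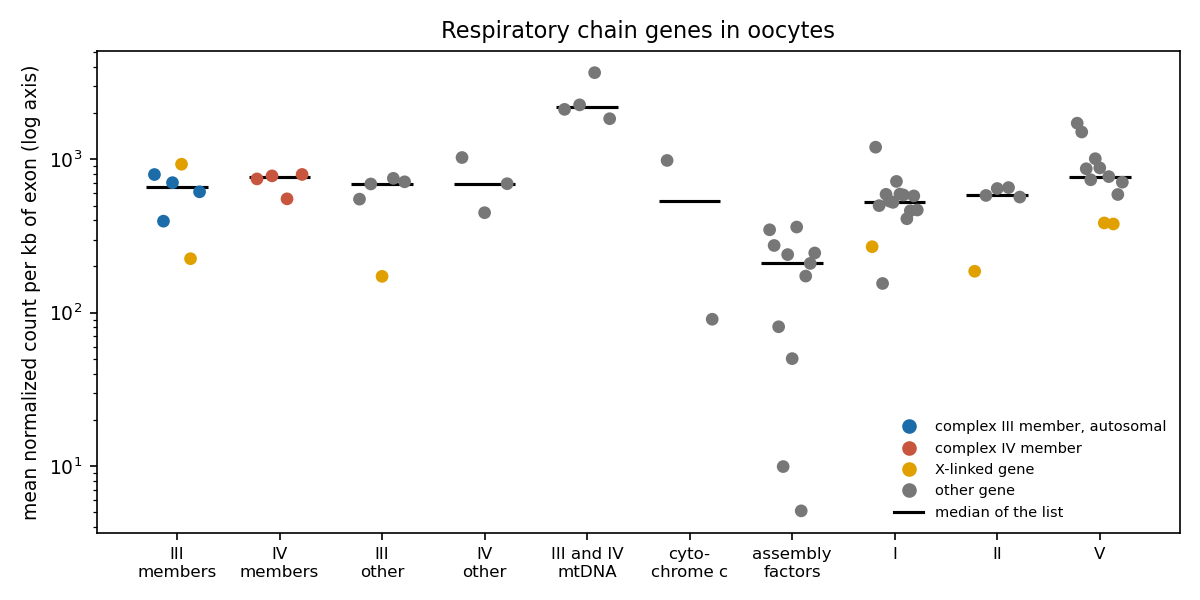
Level of respiratory chain genes, as mean normalized count per kb of exon on a log axis, by complex. Each point is a gene (yellow if X-linked) and each black line the median of its list. The complex III and IV genes followed here have medians of 660 and 763 per kb, the mitochondrially encoded ones lie at 1842 per kb or above, and the assembly factors have a median of 209 per kb.

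Set beside the other complexes of oxidative phosphorylation, the medians were 660 per kb of exon for the 6 complex III genes and 763 per kb for the 4 complex IV genes, with 529 per kb for 14 nuclear genes of complex I, 582 per kb for 5 of complex II and 772 per kb for 11 of complex V (ATP synthase). The ranges overlapped throughout. They ran from 155 per kb (*nuo-3*) to 1201 per kb (*nuo-1*) in complex I, from 186 per kb (*sdha-1*) to 655 per kb (*mev-1*) in complex II, and from 379 per kb (*asg-2*) to 1722 per kb (*atp-1*) in complex V. *nuo-3* shares 72.6% of its exon bases with another protein-coding gene model on the same strand, so its value is uncertain. No difference between complexes was tested, since genes of a complex are not replicates.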

How the data were processed

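The authors prepared oocyte RNA with a Direct-zol RNA microprep kit, made libraries with a stranded total RNA kit for small inputs, and sequenced them. Alignment was to WBcel235 with counting in STARsolo, genes under 10 reads in total were dropped, and the media were compared in DESeq2, all by the authors. The submitters' processing notes name STAR and kallisto. Tool versions, and which of the 17 libraries entered, are not given in the sources used here. The deposited mean normalized count is a signal: the authors scaled the counts of each library by its size factor and took the mean over libraries. The other 5 numeric columns of the deposited table hold the authors' own comparison (fold change, its standard error, test statistic, p-value and adjusted p) and were not used. With no value per library, the depth is unknown, and no test, interval or pairing was possible. The mean normalized counts sum to 4414705, which is the depth of no library.

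Mean normalized counts were divided by the length of the union of annotated exons, in kb. Coding length is that of the longest coding sequence, without its stop codon. The WBcel235 gene annotation of Ensembl (release 115) gave lengths, positions and overlaps, and 21399 of the 21459 identifiers were found in it. Mitochondrial genes were named by RefSeq symbols of the same assembly at positions that overlap by at least 90%. The length and percentile functions were tested on simulated data. A percentile is the share of protein-coding genes with a lower level. The 10 members and the gene lists were chosen with earlier results of these data known. All members, the other subunits of complexes III and IV, the mitochondrial subunits and cytochrome c were named, as were the highest and lowest gene of each other list. *bcs-1*, *cox-10*, *cox-14* and the paralogs of X-linked subunits were named after their values were seen. Protein identity between the paralogs was not computed, since only the gene annotation, without sequence, was used. Python 3.11.15, numpy 2.4.6, pandas 2.3.3 and matplotlib 3.10.9 were used.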

Additional observations from a re-analysis of the deposited data

How the results depend on the processing

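No paired analysis was possible because each gene has a single mean, without a value per replicate. The values below are levels relative to the median protein-coding gene. With the coding length or the length of the longest transcript, each of the 12 medians, ratios and shares planned for comparison stayed within 1.5 times its value. The level of *cox-5B* moved further, to 49.2 with coding length, against 31.3 with exon length. With no length, which favours long genes, the complex IV median fell to 22.9, against 43.1 with exon length, and its ratio to complex III to 0.642, against 1.16. On that scale the medians were 7.58 for the other subunits of complex III, 11.9 for those of complex IV, 12.8 for cytochrome c, 4.34 for assembly factors, 21.1 for complex II and 20.1 for complex V. Of the 10 genes, 3 were then above the 90th percentile, against 8 with exon length, as *isp-1* (89.4), *cox-4* (86.2), *cox-5A* (84.8), *cox-5B* (81.0) and *cox-6A* (80.1) were below it. With coding length 9 were above it, and in protein-coding genes of mean 10 or more 7 were. The percentile of *ucr-2.2*, 75.8, was 59.4 in those genes, and that of *cyc-1*, 86.3, was 77.0 there and 92.1 with coding length. The counts above the 90th percentile and the next alternatives were chosen after seeing the data. Without *cyc-1*, *ucr-2.2* and *ucr-2.3*, which share exon bases with other genes, the complex III median stayed within 1.5 times its value of 37.3, as did that of the assembly factors (11.8) without *cox-14* and *cox-16*. Single libraries could not be left out.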

Other observations

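Per kb of exon, X-linked subunits stood at low levels within the respiratory chain, with *ucr-2.1* as the exception. This was noticed in the data and was not tested. Of 48 nuclear subunits listed for complexes I to V, 7 are X-linked. *ucr-2.1* was at 930 per kb of exon, and the other 6 lay between 172 per kb (*R07E4.3*) and 385 per kb (*asb-2*), with a median of 247 per kb. The 41 autosomal subunits had a median of 655 per kb, and 1 of them (*nuo-3*) was below 385 per kb. Without division by length, the separation was less clear. By mean normalized count, these 6 X-linked genes ran from 47.1 (*R07E4.3*) to 455 (*gas-1*). Autosomal subunits lay on both sides of *gas-1*, such as *cox-6A* at 427 and *atp-1* at 3498. Lower levels per kb of exon were not limited to subunits. All X-linked protein-coding genes had a median of 11.6 per kb, against 19.1 per kb for autosomal ones. Their 90th percentiles were 210 and 495 per kb. Of the X-linked subunits other than *ucr-2.1*, *asb-2*, *asg-2*, *gas-1* and *ucr-2.2* were above 210 per kb, and *sdha-1* and *R07E4.3* were below it.

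Where a subunit has an X-linked and an autosomal version, the X-linked one was lower in each of the 4 pairs of other complexes. The ratio was 0.38 for *gas-1* over *nduf-2.2* (complex I), 0.32 for *sdha-1* over *sdha-2* (complex II), 0.44 for *asb-2* over *asb-1* and 0.49 for *asg-2* over *asg-1* (both complex V). In complex III, *ucr-2.2* over *ucr-2.3* was 0.37, while *ucr-2.1* over *ucr-2.3* was 1.51. Of the 48 subunits, 5 were above *ucr-2.1*. A spread between libraries is needed to say whether these ratios exceed the variation between samples, and the part that sheath RNA plays in them was not tested. How far these ratios go with the lower levels of X-linked genes as a whole was not tested either.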
